A study of Mus musculus with 3 samples.

Results

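The cells described here are macrophages from dissected intermediate lobes (ILs) of the mouse pituitary that carried MHC class II transcripts and few microglial ones. They were chosen by the genes detected in each cell, so the genes of that rule describe the cells and are not findings. A cell was a member when it held at least 1 unique molecular identifier (UMI, a counted transcript molecule) in 3 or more of C1qa, C1qb, C1qc, Csf1r, Tyrobp and Ctss, in 2 or more of Cd74, H2-Aa, H2-Ab1 and H2-Eb1, and in no more than 1 of P2ry12, Gpr34, Crybb1, Trem2 and Cx3cr1. The rule found 141 members among 9661 cells: 54 of 2020 in the WT library, 47 of 4153 in P27NULL and 40 of 3488 in S2CK.

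MHC class II molecules display peptides from engulfed material to CD4 T cells. Their α and β chains assemble with the invariant chain, encoded by Cd74, which blocks the peptide groove until the complex reaches the lysosome, where H2-DM exchanges the remaining fragment for a peptide. Macrophages that carry class II at steady state are found at tissue borders and around vessels, whereas microglia, the macrophages of the neural parenchyma, carry little of it when unperturbed.

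Each genotype was represented by 1 library of cells from dissected ILs of 3-month-old mice, prepared as 3′ single-cell RNA libraries. All animals, controls included, carried Sox9iresCreERT2/+, a tamoxifen-inducible Cre expressed from Sox9, a gene of pituitary stem cells (SCs), and per the labels received tamoxifen by gavage at 4 weeks, whereas the study's text on these animals places the induction of Cre at birth. Per the study's methods every genotype also carried Rosa26ReYFP/+, an eYFP reporter allele, and the strains were kept on a mixed background. P27NULL animals were also p27-/-, lacking the cell cycle inhibitor encoded by Cdkn1b in every cell. S2CK animals were p27-/- and carried Sox2fl/+, so that Cre could remove 1 copy of Sox2 in SCs. Per the study's methods each library was a pool of animals, males for WT and both sexes for the others. With 1 library per genotype, a difference between libraries has no replicate check. It cannot be told apart from a difference in animals, sex, dissection or library preparation. No p-value is given, and every interval is an exact 95% interval that covers counting error only.

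Several facts of the libraries bear on the members. The median depth of the cells failing the first limit was 3732.5 UMIs in WT, 2759 in P27NULL and 4944 in S2CK, against 1634.5, 1967 and 3168 in the members. The WT table reached down to 502 UMIs per cell, and 16 of its 54 members lay under 1000, whereas neither other table held a cell under 1000. Xist had no row in the WT table and was found in 9 of 47 P27NULL members and 31 of 40 S2CK members, while UMIs of Y-linked genes were found in 9 WT and 7 P27NULL members. Of 5 sex-linked genes the S2CK table had a row for 1, Xist, and no row for a Y-linked gene, although the study's methods give both sexes for that pool. It therefore holds no reading of male cells in S2CK, and the sex of those animals was not tested. Cdkn1b was read at 41.8 CPM (UMIs per 1000000 UMIs of the summed cells) in WT, 34.4 in P27NULL and 17.8 in S2CK cells failing the first limit. Reads from the 3′ end do not show which part of the gene was deleted, so this gene does not check the labels, and the libraries are called by them throughout. Cell barcodes shared between libraries numbered 2 to 4 per pair, and 1 of them belonged to a member. Markers of anterior lobe cells were also read in the cells failing the first limit. Those of gonadotrophs summed to 8998, 1859 and 737 CPM in WT, P27NULL and S2CK. Those of the Pou1f1 lineage, Gh and Prl among them, summed to 8514, 1000 and 4818 CPM. The lobe that a member came from is therefore not shown.

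Cells near the limits of the rule were counted in each library. Members with exactly 3 macrophage genes numbered 5, 3 and 5 in WT, P27NULL and S2CK, and cells that missed that limit by 1 gene numbered 6, 13 and 15. Members with exactly 2 MHC class II genes numbered 6, 3 and 0, and cells with 1 such gene numbered 14, 4 and 3. Most WT and P27NULL members lay at the microglial limit, whereas 22 of 40 S2CK members held no microglial gene of the rule. Members with 1 microglial gene numbered 31, 26 and 18, and cells kept out by a second one numbered 8, 12 and 26.

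Some members also held transcripts of other IL cells. In 11 WT, 17 P27NULL and 11 S2CK members there were UMIs in 2 or more of 7 melanotroph markers or 2 or more of 6 SC markers. These mixed cells reached 28706, 14305 and 46240 UMIs, and 8.95, 9.69 and 5.07% of their UMIs were from Pomc, the prohormone gene of melanotrophs. They supplied 110204 of the 169275 UMIs of the WT members, 80321 of 133971 in P27NULL and 130302 of 223259 in S2CK. Among the rest, C1qa, C1qb and C1qc, which encode the chains of complement C1q, made up less than 0.4% of UMIs in 2 WT, 1 P27NULL and 5 S2CK members. That boundary was placed after the values had been seen, in the empty stretch between 0.324 and 0.556%. The other 94 members, 41 in WT, 29 in P27NULL and 24 in S2CK, are called core members, and levels below are theirs unless all members are named. Pomc made up 0.460, 0.237 and 0.494% of their UMIs, against 13.6, 12.2 and 12.9% in cells failing the first limit. Their median depth was 1247, 1679 and 2416.5 UMIs.

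**Figure D1:**
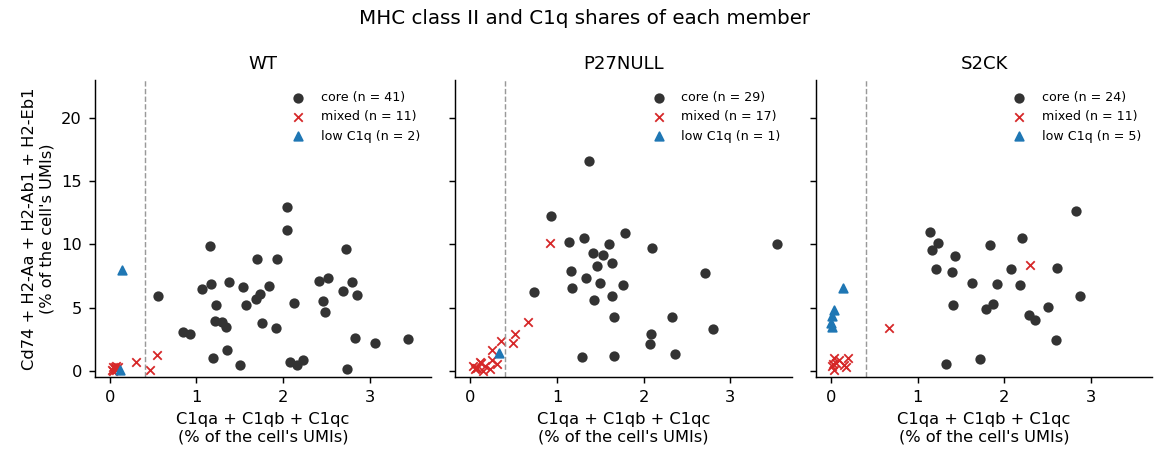
Each point is 1 member, with the percent of its UMIs in C1qa, C1qb and C1qc on the x axis and the percent in Cd74, H2-Aa, H2-Ab1 and H2-Eb1 on the y axis, for WT, P27NULL and S2CK; marker style gives core, mixed and low-C1q members and the dashed line is 0.4%. Core members reached 12.9% of UMIs in the 4 class II genes in WT, 16.6% in P27NULL and 12.7% in S2CK.

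The genes of the class II α and β chains lie close together on chromosome 17. In RefSeq coordinates of GRCm38.p6, H2-Ab1 spans chr17:34263227-34269418, H2-Aa chr17:34282744-34287823 and H2-Eb1 chr17:34305867-34316674. H2-DMb1, a chain of the peptide exchanger, lies at chr17:34153191-34160229. Class II promoters share a short array of motifs bound by a common set of factors and by the co-activator CIITA, and the promoters below are shown because these genes were read in the same cells. X is the longest stretch in which the promoters of H2-Eb1, H2-Eb2 and H2-DMb1 carried the same letter at all but 2 positions, AGNAACTGATGNTGCT, and Y is GATTGG. Both were chosen with these promoters in view. On the strand of the gene, capitals mark X and Y in 96-base windows from RefSeq, GRCm38.p6: H2-Aa at chr17:34287847-34287942 (minus strand), H2-Eb1 at chr17:34305737-34305832, H2-DMb1 at chr17:34153059-34153154 and H2-Eb2, a paralog of H2-Eb1, at chr17:34325504-34325599 (all plus strand).
H2-Aa: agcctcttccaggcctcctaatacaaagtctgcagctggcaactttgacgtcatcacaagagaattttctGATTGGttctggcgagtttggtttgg
H2-Eb1: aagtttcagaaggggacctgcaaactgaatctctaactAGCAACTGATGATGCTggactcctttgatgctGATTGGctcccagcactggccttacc
H2-DMb1: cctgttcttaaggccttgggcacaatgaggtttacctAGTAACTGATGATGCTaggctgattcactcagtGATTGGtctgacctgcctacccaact
H2-Eb2: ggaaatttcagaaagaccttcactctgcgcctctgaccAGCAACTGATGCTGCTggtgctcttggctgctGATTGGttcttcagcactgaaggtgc

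Between X and Y lay 16 bases in H2-Eb1 and H2-Eb2 and 17 in H2-DMb1. Counting both strands, X was found in 3 of 27025 mouse promoters of the same length (0.0111%), which are the 3 it was read from, and Y in 4474 (16.6%). In promoters of that length, Y without X was found in H2-Aa, H2-DMb2, H2-Oa and H2-Ob, and neither was found in H2-DMa. A match describes letters only. X was read from 3 promoters, so its absence from another does not show that a looser form is lacking there. H2-Eb1 and H2-Eb2 share both motifs, and H2-Eb2 was read with 1, 2 and 0 UMIs in the WT, P27NULL and S2CK members.

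The 4 class II genes of the rule took a large part of each core member's transcripts. The median core member held 5.39% of its UMIs in them in WT (lowest 0.119, highest 12.9), 7.35% in P27NULL (1.11 to 16.6) and 6.89% in S2CK (0.552 to 12.7), and the ranges overlapped across libraries. Core members with less than 1% numbered 5 in WT, 0 in P27NULL and 2 in S2CK. Cd74 was the most abundant, at 30149 CPM in WT, 43990 in P27NULL and 33456 in S2CK. H2-Eb1, a class II β chain, was at 9080, 12954 and 14925 CPM, and H2-Aa, the class II α chain, at 6491, 8254 and 10279. H2-Ab1, the β partner of H2-Aa, was at 3283, 3574 and 6119 CPM. Since 3′ counting gives each molecule a similar weight regardless of length, these levels can be set side by side within a library, though not as exact ratios of transcripts. In cells failing the first limit Cd74 was at 91.4, 113 and 150 CPM and was read in 5.73, 4.72 and 4.92% of cells, at the median depths given above.

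Of the label's markers, Lyz2 alone was outside the rule. Lyz2, the lysozyme gene of myeloid cells and not part of the rule, was at 1426, 2758 and 2566 CPM and was found in 61.0, 79.3 and 91.7% of them. C1qa was found in 97.6% of WT core members and 100% of the others, and in 0.64, 0.37 and 0.44% of cells failing the first limit, which the selection fixes. Of 16 pan-myeloid genes, 12 had 30 or more UMIs in core members, and all 12 were higher by 1 or more on the log2 scale than in cells failing the first limit in each library. The background for that count was 209 of 653 genes with as many UMIs (32.0%), and 16 (2.45%) were lower by as much. Over all members the counts were 309 (14.2%) and 34 (1.56%) of 2175 genes. Fcer1g, the signalling chain of Fc receptors, was at 5384, 5846 and 4888 CPM and was found in every core member. Spi1, the gene of the myeloid transcription factor PU.1, was at 300.2, 388 and 503 CPM, against 0.998, 1.24 and 1.28.

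Melanotroph and SC markers are low in core members by construction, since cells with 2 or more of them were set aside. Over all members the 7 melanotroph markers summed to 346, 411 and 156 UMIs and the 6 SC markers to 371, 94 and 600. In core members the melanotroph markers summed to 4, 5 and 4 UMIs, with Pax7, the melanotroph selector gene, at 0 in every library. The SC markers summed to 3, 0 and 2 UMIs, and Cyp2f2 and Lcn2 were at 0. The core was not cut on markers of lymphocytes. No UMI was found in it for any of 9 T or NK cell genes, which allows up to 56.3, 58.3 and 52.0 CPM for each gene in WT, P27NULL and S2CK. B cell genes summed to 17, 18 and 18 UMIs. Of these, Ighm, an immunoglobulin heavy chain, supplied 14, 12 and 14, at 263, 233 and 243 CPM, and it was at 225, 285 and 241 CPM in microglia-like cells. Cd79b, part of the B cell receptor, supplied 3, 6 and 4. The part of these markers in the results was not tested.

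The machinery around the class II chains was measured more thinly. H2-DMa, the α chain of the exchanger, was at 319 CPM in WT (interval 186 to 511), 369 in P27NULL (222 to 576) and 520 in S2CK (351 to 742). H2-DMb1 was at 432 (274 to 648), 563 (377 to 809) and 676 CPM (481 to 924). Both genes were higher than in cells failing the first limit by between 6.09 and 7.75 on the log2 scale across the 3 libraries. H2-DMb2 is a near-identical copy of H2-DMb1 and had 0, 1 and 0 UMIs, so how reads were divided between them is uncertain. H2-Oa, which with H2-Ob restrains H2-DM, was at 56.3, 77.7 and 69.3 CPM, and H2-Ob had 1, 0 and 0 UMIs. Ciita, the master co-activator of the class II genes, had 2, 2 and 1 UMIs. These values are at or near the limit that 3 counts set. Of the 13 pathway genes listed, 2 had 30 or more UMIs, and both were past the fold, beside 32.0% of all genes with as many UMIs.

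MHC class I genes, which present peptides made inside the cell, were also read in these cells. B2m, the light chain of class I, was at 1219 CPM in WT, 1457 in P27NULL and 1421 in S2CK, higher than in cells failing the first limit by 3.76, 4.68 and 4.48 on the log2 scale. H2-D1, a class I heavy chain with near-identical relatives, was at 1370, 1049 and 2028 CPM. Psmb8, a subunit of the immunoproteasome, was at 825, 466 and 867 CPM. All 5 of the 16 class I genes with 30 or more UMIs were past the fold, beside 32.0% of all genes with as many UMIs. The 16 genes summed to 5384, 4719 and 6657 CPM, against 6333, 6279 and 7829 in the microglia-like cells defined below, mixed cells left out. Of 7 class I genes measured against those cells, 0 were higher and 0 lower past the fold. Ligands that give T cells a second signal were sparse: the 9 listed genes summed to 18, 13 and 11 UMIs, and Cd86 had 6, 2 and 5 of them.

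**Figure D2:**
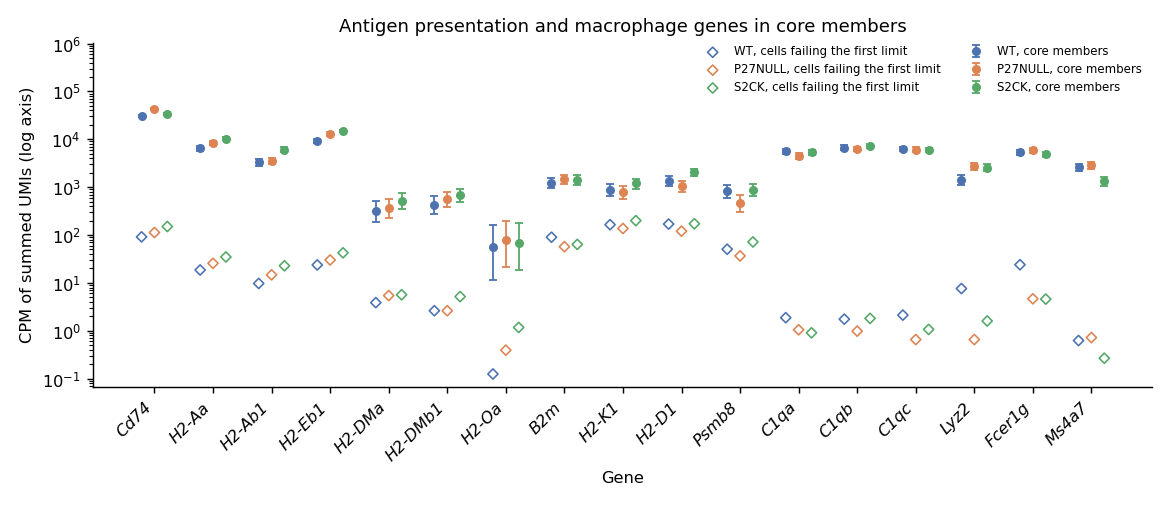
CPM of summed UMIs on a log axis for antigen presentation and macrophage genes, with filled points for the core members of each library (bars, exact 95% Poisson intervals) and open diamonds for cells failing the first limit. Cd74 is the highest point in each library, and every gene shown lies above the cells failing the first limit, by the smallest margin in H2-K1 at 2.42 on the log2 scale in WT.

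Outside the rule, the gene with the largest ratio to cells failing the first limit was Ms4a7, which encodes a membrane protein of tissue macrophages and lies at chr19:11321039-11336146. Ms4a7 was at 2645 CPM in WT, 2874 in P27NULL and 1317 in S2CK and was found in 35 of 41, 26 of 29 and 23 of 24 core members. Its log2 ratio was 12.05, 11.96 and 12.27, with lower limits of 10.79, 11.08 and 10.99. It was found in 0.16, 0.25 and 0.15% of cells failing the first limit. Next, ranked by the library with the smallest ratio, came Fcgr3, Ccl12, Wfdc17, Pf4, Cd14, Ccl8, Il1b, Lilra5 and Fcgr1, whose smallest ratios ran from 10.67 to 9.54. Fcgr3 and Fcgr1 are receptors for IgG, Cd14 is a co-receptor for lipopolysaccharide, and Ccl8, Ccl12 and Pf4 are chemokines. The lowest ratios of Lilra5, in WT, and Ccl8, in P27NULL, were against cells at 0 UMIs and are lower bounds set by 3 counts.

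Genes of uptake and digestion were prominent by level. Apoe, the lipid carrier, was at 14258, 14586 and 13746 CPM, and its ratio to cells failing the first limit was 6.45, 7.26 and 6.73 on the log2 scale. Cst3, the cathepsin inhibitor cystatin C, was at 23695, 20587 and 15480 CPM. Of 21 lysosomal genes, 16 had enough UMIs and 15 were past the fold; the other, Cd63, was at 1.21, 1.21 and 0.55. Ftl1 and Fth1, the ferritin chains, were among the 3 of 3 measured iron genes past the fold, and Fth1 alone was at 30036 CPM in WT, 39057 in P27NULL and 26210 in S2CK. Of the immediate early genes, a sign of handling as well as of signalling, 3 of 9 were past the fold, a share near the background of 32.0%. Their sum of 5591, 4817 and 8147 CPM compared with 5599, 4300 and 3161 in cells failing the first limit. For heat shock genes 0 of 3 were past the fold.

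The nearest like cells were microglia-like, defined by the same 6 macrophage genes with 2 or more microglial and fewer than 2 class II genes of the rule. They numbered 43 in WT, 27 in P27NULL and 21 in S2CK, or 39, 25 and 17 without mixed cells, and core members were compared with the latter within each library. Both classes were cut from these counts, so the ratios are a description. Over all members and all microglia-like cells, 75 of 3061 genes (2.45%) were higher by 1 or more on the log2 scale in all 3 libraries and 122 (3.99%) were lower by as much. In the core, of 1303 genes, 25 (1.92%) were higher and 56 (4.30%) were lower. In the core none of the 6 macrophage genes of the rule was past the fold in either direction. C1qa differed there by -0.08, -0.09 and -0.53 on the log2 scale. Both classes were chosen by these genes, and the core also by its C1q share, so this likeness is partly built in. Over all members 1 of the 6 was lower past the fold. The 6 genes summed there to 9984, 12346 and 7592 CPM, against 32140, 19405 and 28663 in all microglia-like cells.

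Ms4a7 stood highest among the genes outside the rule, by 4.38 in WT, 4.07 in P27NULL and 4.45 in S2CK. H2-DMb1 followed at 2.35, 4.89 and 3.49. Then came Pla2g7, a secreted phospholipase, and Glipr1, whose smallest ratios were 2.03 and 2.01, and the predicted gene Gm34084. Apoe was higher by 1.14 (interval 0.97 to 1.31), 1.36 (1.16 to 1.56) and 1.49 (1.25 to 1.75). Cxcl16, a membrane-bound chemokine, was higher by 1.41, 1.95 and 1.62, and the interleukin gene Il1b by 1.83, 1.03 and 1.08. Wfdc17, a small secreted protein of macrophages, was higher by 1.58, 4.48 and 1.46. The interval of the S2CK ratio of Il1b reached below 0, at -0.02.

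On the lower side stood Cd9, a tetraspanin of the cell surface, at -4.18 in WT (interval -5.14 to -3.35), -3.85 in P27NULL (-4.83 to -3.01) and -4.23 in S2CK (-5.33 to -3.30). Ctsl, the lysosomal protease cathepsin L, was at -3.72, -4.62 and -3.41. Sparc, a matrix-binding glycoprotein, Syngr1, a synaptic vesicle protein, and Ldhb, a lactate dehydrogenase chain, completed the lowest 5. Of 20 lysosomal genes measured, 5 were lower past the fold and 0 higher, against 4.30 and 1.92% of all genes. Ctsd, cathepsin D, was at -3.33, -2.34 and -2.80, and Cst3 at -1.41, -1.04 and -1.76. The 7 further microglial markers summed to 57, 62 and 88 UMIs in core members, or 1069, 1204 and 1525 CPM, against 3884, 3775 and 3794 CPM in the microglia-like cells. UMIs in 2 or more of them were found in 5 of 41 WT, 5 of 29 P27NULL and 12 of 24 S2CK core members (12.2, 17.2 and 50%). After thinning to 1000 UMIs, which left out the 16 WT core members below that depth, the shares were 8, 10.3 and 12.5%. Among these markers Sall1, a transcription factor of microglia, had 0 UMIs in the core members of every library and was at 113, 209 and 120 CPM in the microglia-like cells. Tmem119, another microglial marker, had 4, 4 and 9 UMIs in core members and was at 281, 285 and 361 CPM in the microglia-like cells.

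**Figure D3:**
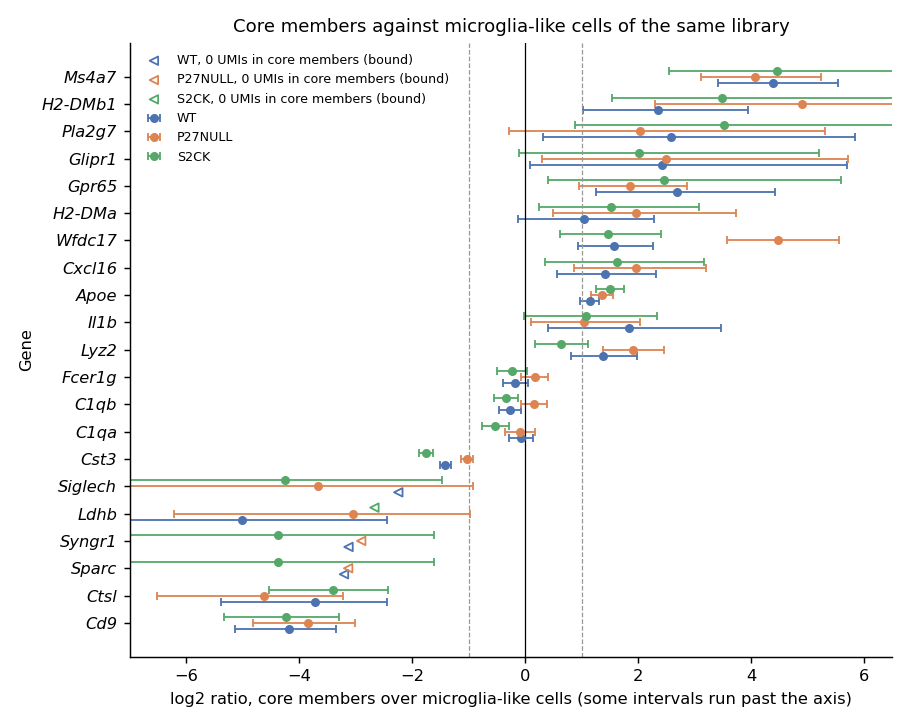
The log2 ratio of core members to microglia-like cells without mixed cells, by gene and library, with exact 95% intervals; open triangles mark genes with 0 UMIs in core members, placed at the bound set by 3 counts, and dashed lines mark -1 and 1. Ms4a7 lies at 4.07 or higher in every library and Cd9 at -3.85 or lower, while C1qa lies near 0.

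Members differed among themselves in genes of perivascular macrophages. Pf4, also called Cxcl4, had 106 UMIs in WT, 35 in P27NULL and 47 in S2CK, from 9, 6 and 9 core members, so that most core members held none. Mrc1, the mannose receptor of perivascular macrophages, had 15, 2 and 8 UMIs. Cd163, a haemoglobin scavenger receptor, had 0, 0 and 1, and Folr2 had 0, 1 and 2. Lyve1 had 0 UMIs in P27NULL and S2CK and no row in the WT table. UMIs in 2 or more of the 15 listed genes, Ms4a7 included, were found in 12 of 41 WT core members (29.3%), 9 of 29 in P27NULL (31.0%) and 14 of 24 in S2CK (58.3%). Of the 15, 8 had a row in the WT table, 9 in P27NULL and 10 in S2CK, so fewer could be found in WT. S2CK core members were the deepest. Thinning to 1000 UMIs leaves out the 16 WT core members below that depth, so every thinned share of WT core members is over 25 cells. The thinned shares were 28.0, 24.1 and 37.5%, with intervals that overlapped. The core and all members were thinned in separate random draws. In S2CK 9 of 24 thinned core members held 2 or more of these genes, against 8 of 40 when all members were thinned, although the core is part of them. Thinned shares thus also vary with the draw, which the intervals do not cover.

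Monocyte genes summed to 28, 25 and 33 UMIs, or 525, 486 and 572 CPM, against 502, 277 and 316 in cells failing the first limit. Most came from Cebpb, a transcription factor that macrophages and other cells also use, with 25, 18 and 33 UMIs, which was not past the fold in all 3 libraries. Ly6c2, the marker of classical monocytes, had 0 UMIs in each library, and Ccr2, the receptor that brings monocytes into tissue, had 0, 2 and 0. S100a4 and Plac8 had none. UMIs in 2 or more of 14 monocyte genes were found in 0 WT, 5 P27NULL and 0 S2CK core members, and after thinning in 0, 1 and 0.

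Dendritic cell genes were found both in core members and in members with little C1q. UMIs in 2 or more of 16 such genes were found in 0 of 41 WT, 6 of 29 P27NULL and 2 of 24 S2CK core members (0, 20.7 and 8.33%), and after thinning in 0, 3 and 0. Of the 16, 10 had a row in the WT table, 13 in P27NULL and 14 in S2CK, so fewer could be found in WT. Itgax, which encodes CD11c, and Batf3, a transcription factor, had the most UMIs, with 5, 11 and 3 and with 3, 6 and 9. Of the 5 low-C1q S2CK members, 3 held Xcr1, a chemokine receptor of cross-presenting dendritic cells, with 3, 5 and 7 UMIs. The same 3 cells held Clec9a, which binds the actin of dead cells, with 3, 3 and 6 UMIs. Class II genes made up 4.83, 4.38 and 3.49% of their UMIs, and C1q genes 0.0358, 0.0107 and 0.0116%. The 5 cells together held 25 UMIs of Irf8, a transcription factor of dendritic cells, 5 of Flt3, the receptor of their growth factor, 7 of Itgae and 45 of H2-DMa, and 0 of Ms4a7. Xcr1, Clec9a and Flt3 had 0 UMIs in the P27NULL members and no row in the WT table. These cells met the rule by detection and are left out of the core.

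Members made up 2.67% of WT cells (interval 2.01 to 3.47), 1.13% of P27NULL cells (0.833 to 1.502) and 1.15% of S2CK cells (0.821 to 1.56). The WT share was the highest, and the other two intervals overlapped each other and not that of WT. As a share of the cells that passed the first limit, members were 40.3, 43.5 and 35.7%, and these intervals overlapped. Cells that passed the first limit were themselves 6.63, 2.60 and 3.21% of the libraries. When only cells of 1000 UMIs or more were kept, the WT share was 2.05%. After thinning every cell to 1000 UMIs it was 1.56% (29 of 1858, interval 1.05 to 2.23), against 1.06% in P27NULL (0.771 to 1.42) and 1.43% in S2CK (1.07 to 1.89), and all 3 intervals overlapped. Thinning can also let a cell in by removing a second microglial gene. In S2CK 50 cells met the rule after it, against 40 before, so the thinned members are not the same set of cells. The core alone made up 2.03, 0.698 and 0.688%. A share depends on how the tissue was dissected and dissociated and on the number of melanotrophs and anterior lobe cells in the same library. Their part was not tested.

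Cells with both class II and 2 or more microglial genes numbered 16 in WT, 23 in P27NULL and 45 in S2CK, or 11.9, 21.3 and 40.2% of the cells that passed the first limit. A deeper cell is more likely to show a second microglial gene, and the median depth of cells that passed the first limit was 1557.5, 1877.5 and 2516.5 UMIs. The part of depth in this order was not tested.

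Between libraries, most genes of the core members differed little. In P27NULL against WT, 14 of 302 genes (4.64%) were higher by 1 or more on the log2 scale and 6 (1.99%) were lower by as much. In S2CK against P27NULL, 20 of 312 (6.41%) were higher and 22 (7.05%) lower. In S2CK against WT, 15 of 329 (4.56%) were higher and 14 (4.26%) lower. The medians over all these genes were 0.01, 0.12 and 0.07. The comparisons share libraries, so they are not independent of each other. When all members were summed, the mixed cells included, the counts were 31 higher (3.89%) and 69 lower (8.66%) of 797 in P27NULL against WT. They were 141 (16.5%) and 55 (6.45%) of 853 in S2CK against P27NULL, and 96 (9.18%) and 55 (5.26%) of 1046 in S2CK against WT.

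Class II and macrophage genes of the rule chose the members, so their differences between libraries are a description. The 4 class II genes of the rule had medians of 0.43 in P27NULL against WT, 0.26 in S2CK against P27NULL and 0.69 in S2CK against WT, and none reached 1. The 6 macrophage genes of the rule had medians of -0.09, -0.09 and -0.16, and the 10 to 12 pan-myeloid genes 0.19, -0.09 and 0.05, with none past the fold in the core. Over all members, H2-Ab1 was higher by 1.34 in S2CK against WT, and Csf1r and Tyrobp were at -1.11 and -1.10 in S2CK against P27NULL. Over all members, the mixed cells included, 3 of 12 pan-myeloid genes were higher in P27NULL against WT, Cd68 and Lyz2 among them at 1.20 and 1.05, and 1 of 12 in S2CK against WT. The shares over all genes there were 3.89 and 9.18%.

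The genes that stood highest in P27NULL against WT were the paired chemokines Ccl3 and Ccl4, which draw in monocytes and T cells. Ccl4 had 94 UMIs in WT, 387 in P27NULL and 28 in S2CK, in 15, 22 and 8 core members, or 1764, 7516 and 485 CPM. The P27NULL level lay far above the other two, and no interval overlapped another. On the log2 scale it differed by 2.09 in P27NULL against WT (interval 1.76 to 2.43) and by -3.95 in S2CK against P27NULL (-4.56 to -3.40). Ccl3 had 12, 53 and 6 UMIs and differed by 2.19 and -3.31 in the same comparisons. In RefSeq the annotated spans of Ccl3, chr11:83647843-83649378, and Ccl4, chr11:83648624-83664683, overlap, so the division of reads between them is uncertain. Both genes were also highest in P27NULL in the microglia-like cells, with Ccl4 at 1562, 5463 and 1084 CPM and Ccl3 at 324, 1916 and 331. Without the P27NULL core members that held Xist, the P27NULL against WT values were 1.84 for Ccl4 and 2.05 for Ccl3. In S2CK against WT, Ccl4 differed by -1.86 in the core and by -0.18 over members chosen with no limit on microglial genes, which ends that call.

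Wfdc17 was also highest in P27NULL, with 65, 218 and 67 UMIs, and differed by 1.80 in P27NULL against WT and by -1.87 in S2CK against P27NULL. Lower in P27NULL than in WT were Ccl12, a monocyte-attracting chemokine, with 121, 21 and 79 UMIs and a difference of -2.48, and Pf4, at -1.55. In WT, 1 cell held 24.0% of the UMIs of Ccl12, and 1 cell held 27.4% of those of Pf4. Without that cell the differences were -2.13 and -1.12. With no limit on microglial genes they were -0.29 and -0.26, which ends both calls. Nmt1 was at 1.30, and Rack1, Jund and Hnrnpk at -1.54, -1.19 and -1.17. Over all members only Jund of these was past the fold, at -1.22, and Nmt1, Rack1 and Hnrnpk were at 0.995, -0.23 and -0.52. Without its top cell the interval of Hnrnpk in the core reached 0.17. Gm26870, higher at 1.96, is a predicted gene with near-identical copies and is uncertain.

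In S2CK the genes that stood highest included those of dividing cells. Stmn1, a microtubule destabiliser abundant in proliferating cells, had 2, 2 and 45 UMIs, the last from 7 core members, and differed by 4.33 against P27NULL and 4.38 against WT. Hmgb2, a chromatin protein, had 7, 5 and 37 UMIs and differed by 2.72 and 2.29. With no limit on microglial genes Stmn1 was at 0.85 against P27NULL, which ends that call. The 18 genes of S phase and mitosis summed to 13 UMIs in WT, 13 in P27NULL and 128 in S2CK. In S2CK 1 cell supplied 35.9% of that sum. UMIs in 2 or more of them were found in 2 of 41, 3 of 29 and 7 of 24 core members (4.88, 10.3 and 29.2%), and after thinning in 4.00, 3.45 and 20.8%, with intervals that overlapped. UMIs in 5 or more were found in 0, 0 and 3 cells, so this pattern rests on few cells. Cdkn1b, which restrains the cell cycle, had 1, 0 and 1 UMIs in the core members, below the count of 3 that sets the limit.

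Interferon response genes were read in most core members. UMIs in 2 or more of 22 such genes were found in 26 of 41 WT, 22 of 29 P27NULL and 23 of 24 S2CK core members (63.4, 75.9 and 95.8%), and after thinning in 68.0, 62.1 and 91.7%, with intervals that overlapped. Cxcl10, an interferon-induced chemokine, had 1, 4 and 53 UMIs, but 79.2% of the S2CK UMIs came from 1 cell. Without it the difference against P27NULL fell from 3.56 to 1.38, with an interval of -0.38 to 3.48. Ccl5, a chemokine of T cells as well as macrophages, had 3, 23 and 55 UMIs, of which 98.2% in S2CK were in 1 cell, and without it the difference of 4.08 against WT became -1.62. Dusp1, an immediate early phosphatase, was spread over 10 S2CK core members, with 7, 6 and 35 UMIs, and differed by 2.38 against P27NULL and 2.21 against WT. Over all members it was at 0.57 against WT, and with no limit on microglial genes at 0.91 against P27NULL, both short of the fold. Immediate early genes had medians of 0.68 over 8 genes in S2CK against P27NULL and 0.69 over 8 in S2CK against WT, beside 0.12 and 0.07 over all genes. Ybx1, an RNA-binding protein, was higher than in P27NULL by 2.54. Lower in S2CK than in P27NULL were Nmt1, at -1.90, and Gm26870, at -4.07. Lower than in WT were Ypel3, Tgfbr1, a receptor of the growth factor TGF-β that sustains microglia, and Eif5a, at -1.53, -1.46 and -1.39, and Gm42418, which resembles ribosomal RNA and is uncertain, at -1.46. Over all members none of these 4 was past the fold, with Ypel3, Tgfbr1 and Gm42418 at -0.89, -0.91 and -0.97 and Eif5a at -7.92e-05.

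**Figure D4:**
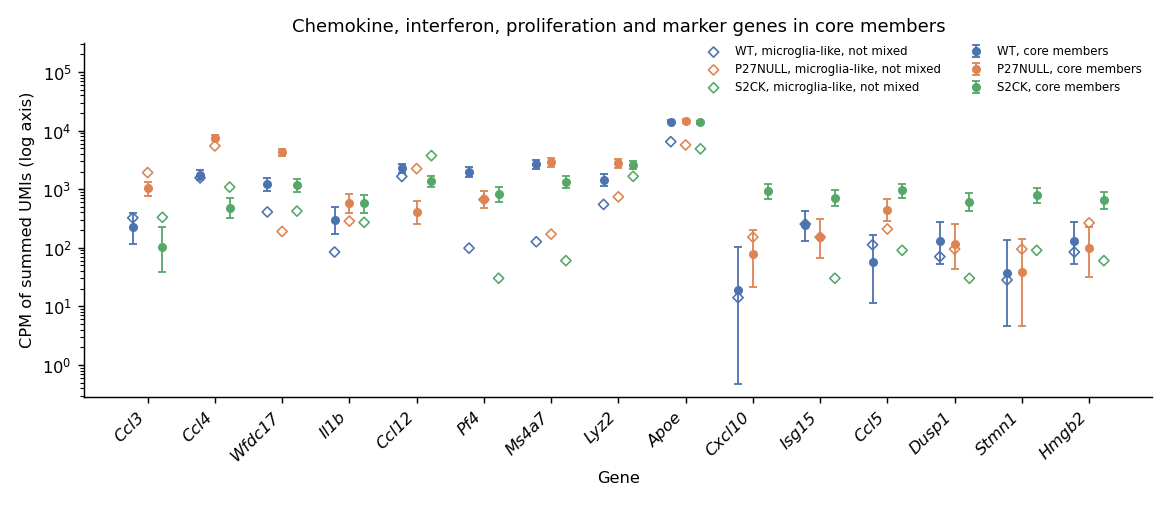
CPM of summed UMIs on a log axis for genes that differed between libraries and for markers, with filled points for core members (bars, exact 95% Poisson intervals) and open diamonds for microglia-like cells without mixed cells of the same library. Ccl4 and Ccl3 are highest in P27NULL in both classes, at 7516 and 1029 CPM in core members, and Stmn1 is highest in S2CK core members, at 780 CPM.

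**Figure D5:**
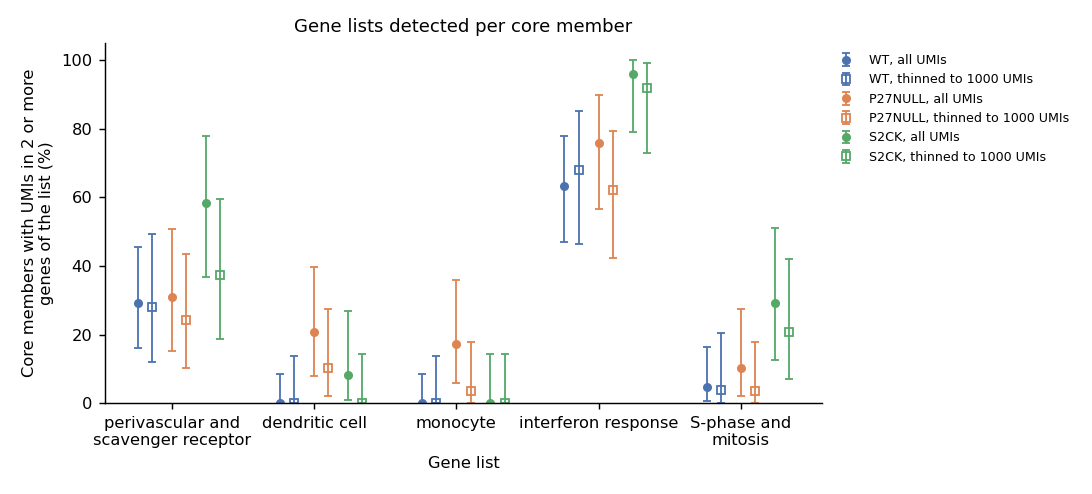
The percent of core members with UMIs in 2 or more genes of each list, by library, with exact 95% binomial intervals; circles use all UMIs and squares use cells thinned to 1000 UMIs. S2CK is highest for interferon response genes, at 95.8 and 91.7%, and for S phase and mitosis genes, at 29.2 and 20.8%, and the thinned intervals overlap for both lists.

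Sources of the growth factors on which macrophages depend were looked for in the same libraries. Csf1r, the receptor for both, was at 582, 466 and 364 CPM in core members and is part of the rule. Its ligand Csf1 had 0, 0 and 1 UMIs in them and was at 2.24, 1.57 and 2.02 CPM in cells failing the first limit. Il34, the other ligand, had none in core members and was at 1.87, 0.981 and 0.852 CPM there. The 15 genes linked with tumour-associated macrophages or alternative activation summed to 41, 54 and 35 UMIs in core members, or 769, 1049 and 607 CPM, against 109, 58.5 and 59.7 in cells failing the first limit and 197, 171 and 181 in microglia-like cells. Mmp12, a macrophage elastase, was the gene of the list with 30 or more UMIs, with 7, 20 and 4, and was past the fold against cells failing the first limit. Lgals3, which encodes the lectin galectin-3, had 7, 13 and 6 UMIs and was higher than in microglia-like cells by 3.22, 2.15 and 1.79. In those cells it was at or below the level that 3 counts set in each library, so these ratios rest on very few UMIs. Arg1 and Spp1 had 0 UMIs in the core members of each library.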

How the data were processed

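Cells of dissected ILs were profiled with a droplet 3′ kit in 1 library per genotype. Per the labels and the submitters' processing notes, the authors used Cell Ranger 3.0.2 with STAR 2.5.1b on mm10, R 3.6.0 and Seurat 3. The authors deposited raw UMI counts per gene and cell for each library; no doublet step is given in the sources used here, and none was run here, apart from setting aside mixed members. The 3 tables list different genes, so a gene may have no row in 1 of them.

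Here, UMIs of the members of a library were summed and divided by their total (CPM). Levels carry exact Poisson intervals, shares exact binomial (Clopper-Pearson) intervals, and ratios an exact conditional interval, all at 95% and covering counting error only. A ratio against 0 UMIs was computed against 3 counts and is a bound. Genes needed 30 UMIs in the members (against other cells), in both classes together (against microglia-like cells) or in both libraries together. Between libraries the level in the higher library also had to reach that of cells failing the first limit there. The fold was 1 on the log2 scale, in all 3 libraries for comparisons within libraries. Named genes were those of the lists, the 10 largest ratios outside the rule against cells failing the first limit, and the 5 largest and 5 smallest of each other comparison; some items are not reported here. Depth was equalised by thinning each cell to 1000 UMIs without replacement.

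The members and lists were chosen with earlier results of these data known, and the core and the mixed class after the members' values had been seen. The ratio and its interval were tested on simulated data. Python 3.11.15, numpy 2.4.6, pandas 2.3.3, scipy 1.17.1, matplotlib 3.10.9 and, for normalization factors, R 4.3.3 with edgeR 4.0.16 were used. Promoter sequences and gene positions are from RefSeq, GRCm38.p6, the assembly that mm10 names. H2-Ab1, Ciita and Cd83 were not printed.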

Additional observations from a re-analysis of the deposited data

Results flagged for a closer look

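Genes are given here whose ratio between libraries in core members was past the fold in one direction and whose ratio in cells failing the first limit was past it in the other. The difference between the 2 classes of cells was not tested in any of them. Ccl4 differed by -1.86 on the log2 scale in S2CK against WT core members (28 and 94 UMIs) and by 2.36 in cells failing the first limit. Ccl5 differed by 4.08 in the same comparison (55 and 3 UMIs, 98.2% of the former in 1 cell) and by -2.37 in the other cells. Dusp1 differed by 2.21 (35 and 7 UMIs), and by -1.70 in the other cells. AW112010, an interferon-induced transcript, differed by 1.81 in S2CK against WT (87 and 23 UMIs) and by -1.04 in the other cells, and by 1.018 and -2.38 in P27NULL against WT. Rgs1, a regulator of G protein signalling in leukocytes, differed by 1.05 in P27NULL against WT (26 and 13 UMIs) and by -3.36 in the other cells.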

How the results depend on the processing

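With 1 library per genotype, no library could be left out, and no paired analysis was possible because no group has a second replicate. Of 27 alternatives to the shares, 17 stayed within the counting interval of the main value. Those that did not gave 1.56% in WT after thinning, 1.14, 0.506 and 0.631% in WT, P27NULL and S2CK with no microglial gene allowed, 1.69 and 2.44% in P27NULL and S2CK with no limit on them, 0.771% in P27NULL without members with 2 or more melanotroph markers, 0.722% without mixed members, and 0.698 and 0.688% in P27NULL and S2CK for the core.

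Over all members, 309 genes higher and 34 lower than in cells failing the first limit became 500 and 71 with no microglial limit, 742 and 95 at 10 UMIs, 17 lower without melanotroph markers and 16 lower in the core. Against microglia-like cells, 75 and 122 became 25 and 56 in the core.

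Between libraries, counts higher and lower moved most with the floor and the mixed cells. At 10 UMIs P27NULL compared with WT gave 211 and 402, S2CK with P27NULL 660 and 299, and S2CK with WT 480 and 376. Without mixed members they were 17 and 6, 45 and 31, and 43 and 29. In the core they were 14 and 6, 20 and 22, and 15 and 14. With edgeR's TMM factors in the core they were 21 and 4, then 20 and 23, then 22 and 11. For P27NULL against WT they were 13 and 5 in the core without P27NULL cells holding Xist, 51 higher with no microglial limit and 28 lower without melanotroph markers. For S2CK against P27NULL they were 35 lower at 4 macrophage genes, 67 higher without melanotroph markers and 98 lower with no requirement on the other cells. For S2CK against WT they were 54 higher without melanotroph markers, 35 lower with TMM factors over all members and 106 lower with no requirement on the other cells. Of 616 values of named genes, 571 kept their side of the fold. A change of sign between 2 values short of the fold was counted as kept, as for Eif5a in S2CK against WT, whose values reached 0.158. Among values past the fold 1 reversed: Anxa1 in S2CK against WT was -0.24 without mixed members. The cause was not tested.

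Thinning the members gave 0 and 2.63% with dendritic cell and monocyte genes in WT, 4.26% with monocyte genes in P27NULL, and 20, 5 and 0% with perivascular, dendritic cell and monocyte genes in S2CK. The core gave 0 and 0% in WT and 8.33 and 0% in S2CK for dendritic cell and monocyte genes. S2CK against P27NULL among members with Xist was not run, because P27NULL had 9 such members and 10 were required. The core, mixed and Xist alternatives were chosen after seeing the data, apart from the Xist comparison over all members. In the core, 3 counts correspond to 56.3, 58.3 and 52.0 CPM, so a gene below that level was not measurable there.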

Other observations

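In core members Mgl2, a lectin of dendritic cells and some tissue macrophages, had 2, 9 and 4 UMIs and was at 0 in the microglia-like cells of each library.

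Microglial genes that the rule allowed were unevenly spread. Trem2, a lipid receptor, had 18, 17 and 3 UMIs in core members, Gpr34 had 15, 3 and 4, and Cx3cr1, the fractalkine receptor, had 4, 11 and 9. Crybb1 had 0 in each library. In the microglia-like cells Trem2 was at 1773, 1688 and 2168 CPM. These genes were part of the rule, so their levels are a description.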
